A study of Mus musculus with 9 samples.

Results

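The desmosomal cadherins are the transmembrane proteins of the desmosome, and the family list comprised 9 mouse genes, Dsg1a, Dsg1b, Dsg1c, Dsg2, Dsg3, Dsg4, Dsc1, Dsc2 and Dsc3. Members were chosen by gene symbol in the platform annotation, and 6 of the 9 had a probe set of their own, with 14 probe sets in all among 45101 on the array. Dsg1c, Dsg3 and Dsg4 are not analysed here. For a gene with several probe sets, the brightest on average over the 9 arrays was taken as the main probe set, and 18193 genes were tested.

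The data are 9 arrays hybridised with RNA of back skin cells of 3 mice at postnatal day 2, numbered 2, 4 and 5. Each mouse gave 1 array for each of 3 flow cytometry gates, with a stated yield of roughly 50000 cells per population. R1 held GFP-CD133- cells, described as the dermal pool lacking dermal papillae. R2 held GFP-CD133+ cells, labelled as zigzag dermal papillae, and R3 held GFP+CD133+ cells, labelled as guard, awl and auchene dermal papillae. All groups came from the same mice; GFP in such mice is known as a reporter of Sox2, and CD133 is the product of Prom1. Neither the strain nor the reporter allele is named in the labels.

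Desmosomes are adhesive junctions that tie the keratin filaments of neighbouring cells together. Desmogleins (Dsg) and desmocollins (Dsc) bind each other between cells, and inside the cell they attach through plakoglobin and plakophilins to desmoplakin, which holds the filaments. In stratified epithelium Dsg1 and Dsc1 are known from the upper living layers and Dsg3 and Dsc3 from the basal layers, while Dsg2 and Dsc2 are also known from simple epithelia and heart. Fibroblasts and dermal papilla cells are mesenchymal and are not known for desmosomes. In a RefSeq gene table (GRCm38.p6) the 9 members lie side by side on 1 chromosome, in the order Dsc3, Dsc2, Dsc1, Dsg1c, Dsg1a, Dsg1b, Dsg4, Dsg3 and Dsg2, with 0 other protein-coding genes between them.

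Values are log2 expression values in which a step of 1 is a doubling, and different probe sets are not compared in level because each has its own brightness. The summed level of a gene list is the log2 of the sum of its unlogged values. It follows the brightest probe sets of the list and is read between gates only. Array medians lay between 6.13 and 6.20. As a guide to background, the 95th percentile was taken over 44 probe sets of olfactory receptors, and it lay between 5.14 and 5.46. The 3' minus 5' difference of the beta-actin control probe sets, a sign of RNA quality, was 0.04 to 0.07 in R1, 0.11 to 0.22 in R2 and 0.12 to 0.20 in R3 (log2, 3 arrays each). Its part in the results against R1 was not tested. That of Gapdh overlapped between the gates, at 2.63 to 2.97, 2.57 to 2.85 and 2.68 to 3.02. The gates carried their defining markers: Prom1 averaged 7.43 in R1, 11.85 in R2 and 10.32 in R3, and Corin, a papilla protease, averaged 5.93, 9.45 and 9.95. The CD133+ gates also carried genes of other cells: the endothelial receptor gene Kdr averaged 7.08 in R1, 9.46 in R2 and 7.48 in R3, and the myelin gene Mbp 7.80, 5.92 and 11.95.

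The epithelial members were highest in the R1 dermal pool and lower in both CD133+ gates. In R2 against R1, 4 of the 6 measured members fell and 0 rose at a limma adjusted p under 0.05 (5 and 0 at an unadjusted p under 0.05), where 6.16% of all genes fell and 6.89% rose; the median log2 change of the 6 was -1.66 against -0.02 for all genes. In R3 against R1, 5 of 6 fell and 0 rose (5 and 0 unadjusted), where 10.8% of all genes fell and 7.9% rose, and the median was -2.22 against -0.01. Among main probe sets Dsg1a and Dsc3 had the largest changes, though the second probe set of Dsc1 (-3.57 and -3.29) and, in R3, Dsg2 1439476_at (-3.40) changed by more than Dsc3. The R3 arrays of Dsg2 1439476_at lay under the guide. At its main probe set Dsg2 fell in steps from R1 over R2 to R3, where its mean of 5.23 lay within the range of the guide. The Dsg2 call between R3 and R2 was lost on leaving out any R2 or R3 array. Dsc2 did not pass the test. In bulk RNA of this kind, fewer cells of a type and less RNA per cell cannot be told apart.

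**Figure D1:**
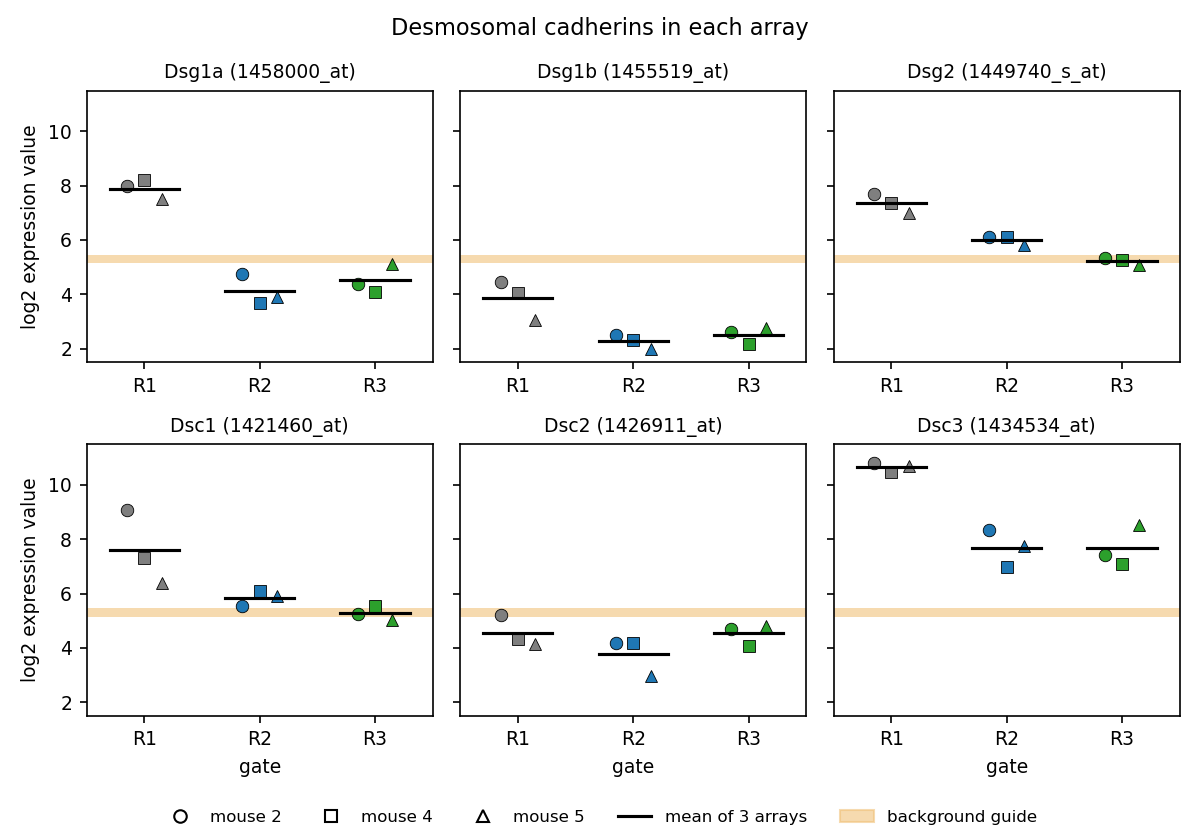
Log2 expression value of the main probe set of each measured desmosomal cadherin (vertical axis) in gates R1, R2 and R3 (horizontal axis); each point is 1 array, its shape the mouse, the bar the mean of 3 arrays and the band the background guide (5.14 to 5.46). Dsg1a, Dsg1b, Dsg2, Dsc1 and Dsc3 have all R1 arrays above all R2 and R3 arrays, and the Dsc2 arrays of the 3 gates overlap.

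Dsg1a, 1 of the mouse copies of desmoglein 1, the adhesion protein of the upper living layers, stood at 7.99, 8.19 and 7.50 in R1 (mice 2, 4 and 5), at 4.76, 3.68 and 3.90 in R2 and at 4.39, 4.09 and 5.13 in R3. Every R1 array lay above every array of the other gates, and all 6 arrays of R2 and R3 were under the background guide of their array. The means were 7.89 ± 0.36, 4.11 ± 0.57 and 4.54 ± 0.53 (SD, n = 3). Dsg1a was 13.7-fold lower in R2 than in R1 (log2 change -3.78, standard error 0.34, limma adjusted p = 0.000113) and 10.3-fold lower in R3 (log2 change -3.36, limma adjusted p = 0.000149). These folds rest on dim signals in R2 and R3.

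Dsg1b, a close copy of Dsg1a, stood at 4.44, 4.05 and 3.06 in R1, at 2.52, 2.31 and 1.99 in R2 and at 2.60, 2.16 and 2.75 in R3. No array of any gate reached the guide, although the R1 arrays did not overlap with the rest. The log2 change was -1.57 in R2 (limma adjusted p = 0.0118) and -1.34 in R3 (limma adjusted p = 0.0177). The R3 call was lost without R1 replicate 2 (adjusted p = 0.0565), R1 replicate 4 (0.0625) or R3 replicate 4 (0.0675). The Dsg1 copies are near-identical in sequence, so signal from Dsg1a, Dsg1b and the unmeasured Dsg1c may not be fully separated by these probe sets.

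Dsc3, the desmocollin of basal keratinocytes, was the only member whose main probe set exceeded the guide in all 9 arrays. It stood at 10.82, 10.47 and 10.71 in R1, at 8.32, 6.97 and 7.74 in R2 and at 7.41, 7.08 and 8.54 in R3. The R1 arrays were tightly placed and lay above all others, while R2 and R3 overlapped with means of 7.68 ± 0.68 and 7.68 ± 0.76 (SD, n = 3). Against 10.66 ± 0.18 in R1, Dsc3 was 7.91-fold lower in R2 (log2 change -2.98, standard error 0.40, limma adjusted p = 0.00117) and 7.93-fold lower in R3 (limma adjusted p = 0.000825). Its other probe set, 1427637_a_at, averaged 8.07, 6.48 and 6.88 and gave smaller changes of -1.60 and -1.19 (adjusted p = 0.00104 and 0.00338 when each probe set was tested with limma).

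Dsc1, the desmocollin of the upper layers, had a pair of probe sets that differed in spread. The main one, 1421460_at, stood at 9.08, 7.29 and 6.39 in R1, at 5.56, 6.08 and 5.90 in R2 and at 5.24, 5.56 and 5.01 in R3. Mouse 2 was far above mouse 5 in R1, and the lowest R1 array was near the highest R2 array. The log2 change in R2 was -1.74 (standard error 0.54, limma adjusted p = 0.0662), which missed the threshold, and that in R3 was -2.32 (limma adjusted p = 0.0155). Both sizes turned on single R1 arrays. Without R1 replicate 2, the array at 9.08, the changes were -0.99 in R2 (adjusted p = 0.0685) and -1.57 in R3 (adjusted p = 0.00784). Without R1 replicate 5, the lowest, they were -2.34 in R2, which then passed (adjusted p = 0.0131), and -2.92 in R3 (adjusted p = 0.00342). The R3 change was lost without R3 replicate 5 (adjusted p = 0.051).

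The other Dsc1 probe set, 1456203_at, stood at 7.23, 7.29 and 7.09 in R1, at 3.53, 3.91 and 3.45 in R2 and at 4.79, 3.55 and 3.40 in R3. Here the R1 mice lay close together and every R2 and R3 array was under the guide. With each probe set tested by limma it was 11.9-fold lower in R2 (adjusted p = 0.000177) and 9.76-fold lower in R3 (adjusted p = 0.000171). With the mean of both probe sets, Dsc1 also passed in R2 (log2 change -2.66, limma adjusted p = 0.000565). The mouse-to-mouse spread of Dsc1 in R1 was thus a property of 1 probe set and not of both.

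Dsg2, the desmoglein of simple epithelia and heart that is also present in skin, stood at 7.70, 7.35 and 7.01 in R1, at 6.10, 6.10 and 5.83 in R2 and at 5.34, 5.26 and 5.08 in R3. The 3 gates did not overlap at this probe set, 1449740_s_at, and the order R1, R2, R3 held in each mouse. The means were 7.35 ± 0.34, 6.01 ± 0.15 and 5.23 ± 0.13 (SD, n = 3), the last within the range of the guide. Dsg2 was 2.54-fold lower in R2 than in R1 (log2 change -1.35, standard error 0.18, limma adjusted p = 0.00114) and 4.37-fold lower in R3 (log2 change -2.13, limma adjusted p = 5.67e-05). Of its 6 probe sets, 5 were called lower in R2 and 6 in R3 when each was tested with limma.

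Dsc2, which is known from many epithelia and from heart, lay under the guide in all 9 arrays at both probe sets. Its main probe set stood at 5.22, 4.33 and 4.13 in R1, at 4.19, 4.19 and 2.98 in R2 and at 4.71, 4.07 and 4.82 in R3. The gates overlapped throughout. The log2 difference was -0.77 in R2 (95% interval -1.64 to 0.10, limma adjusted p = 0.243) and -0.03 in R3 (95% interval -0.90 to 0.84, limma adjusted p = 0.971). Changes within those intervals are not excluded. The gene lies between Dsc3 and Dsc1, both of which were lower in R3 than in R1.

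**Figure D2:**
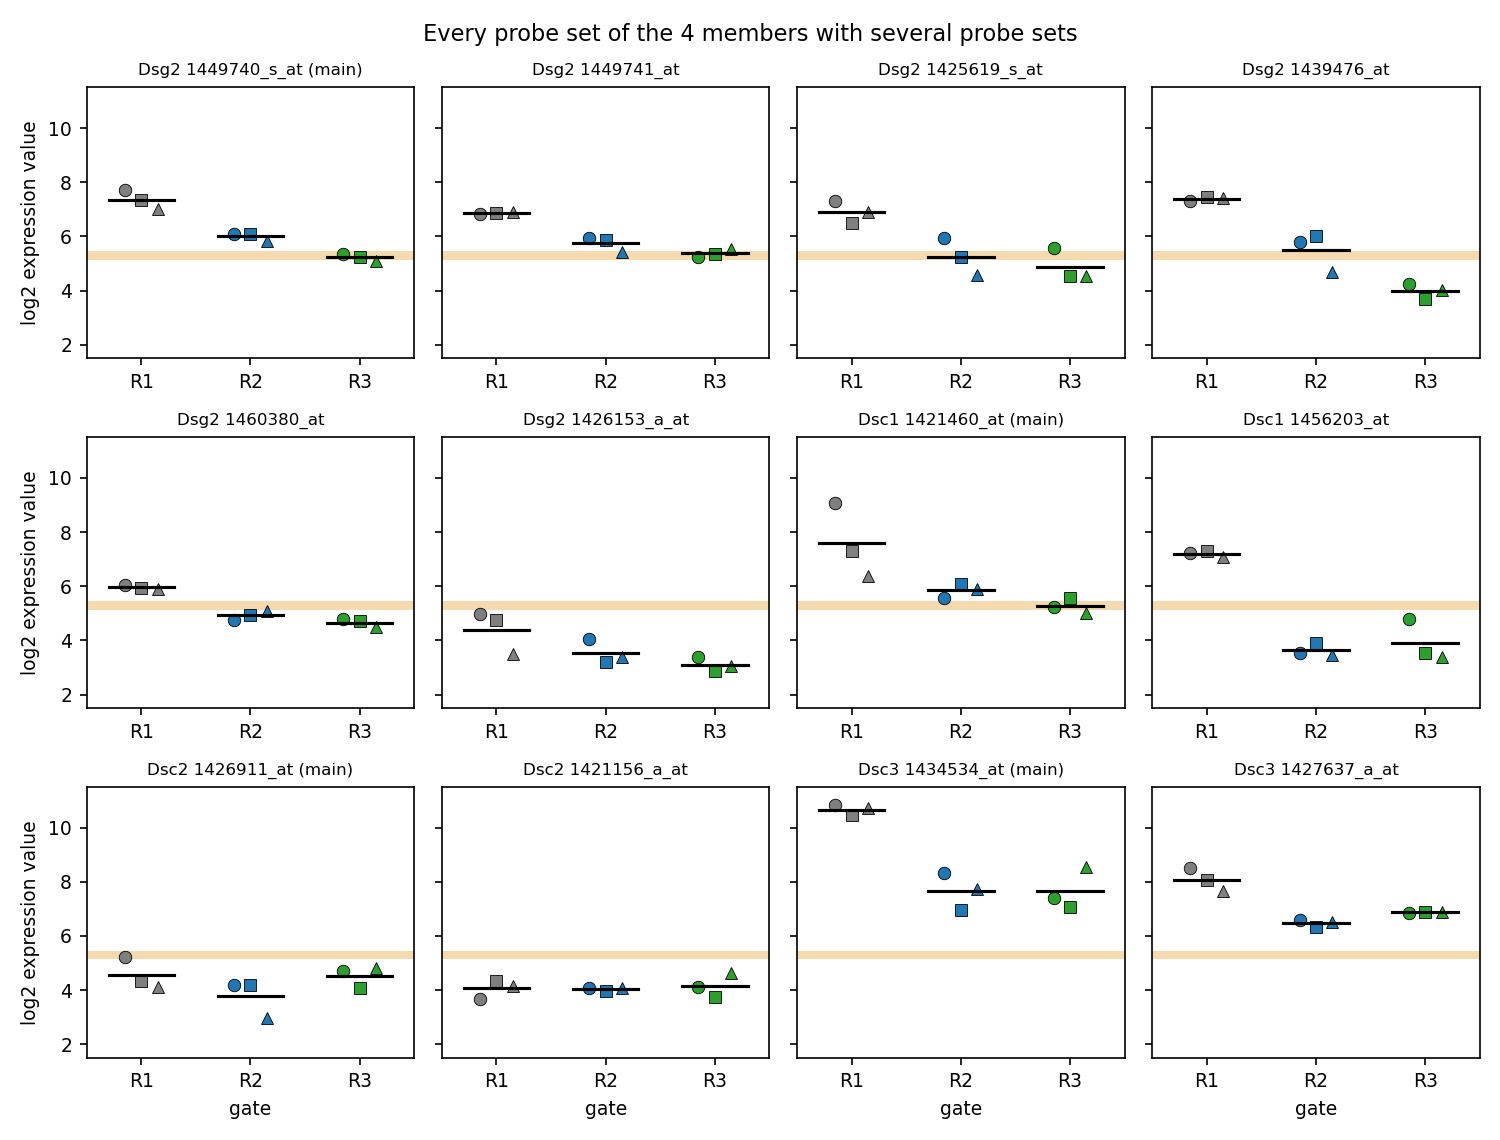
Log2 expression value (vertical axis) in gates R1, R2 and R3 (horizontal axis) for every probe set of Dsg2, Dsc1, Dsc2 and Dsc3, with points, bars and band as in the plot of main probe sets. All 6 Dsg2 probe sets have their highest mean in R1 and their lowest in R3, and Dsc1 1456203_at is tight in R1 where Dsc1 1421460_at spreads from 6.39 to 9.08.

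Taking all 14 probe sets one by one, 10 were called lower in R2 than in R1 and 12 in R3 than in R1 by limma, where 4.74% and 8.37% of all probe sets were called lower in the same test. In either comparison 0 members' probe sets were called higher, where 5.97% and 7.72% of all probe sets were. The arrays did not overlap with R1 for 11 probe sets in R2 and 12 in R3, where 29.2% and 32.2% of all probe sets (30.8% and 34.4% of genes at their main probe sets) had such separation. The 14 are not independent, since 6 of them target Dsg2.

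Whether the members differed in how far they fell was asked of Dsc3 against Dsg2 and Dsc2, 6 comparisons in all; the same questions for Dsg3 could not be asked. From R1 to R2 the log2 change of Dsc3 minus that of Dsg2 was -1.64 (per-array difference 3.11 to 3.70 in R1 and 0.88 to 2.23 in R2; exact permutation p = 0.1, adjusted 0.2, two-sided). The change of Dsc3 minus that of Dsc2 was -2.21 in R2 and -2.96 in R3, again without overlap of the arrays (exact permutation p = 0.1 each, adjusted 0.2). Dsc2 lay under the guide in all 9 arrays, so these differences carry mainly the change of Dsc3. With 3 arrays against 3 the smallest p that this test can give is 0.1, so none could pass. In R3 against R1 the arrays of Dsc3 minus Dsg2 overlapped (difference -0.86, exact p = 0.3, adjusted 0.36). Between R3 and R2 both pairs overlapped, with differences of 0.78 for Dsg2 (exact p = 0.5) and -0.75 for Dsc2 (exact p = 0.3). With the mean of all probe sets of each gene, the difference from Dsg2 shrank to -0.98 in R2 and -0.15 in R3 against R1.

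The proteins of the desmosomal plaque were measured in full, with 10 of 10 genes. In R2 against R1, 6 fell and 0 rose (median log2 change -1.28); in R3 against R1, 6 fell and 0 rose (median -1.24). At an unadjusted p under 0.05 the limma counts were 6 and 7 lower and 0 higher. Dsp, encoding desmoplakin, averaged 12.63 ± 0.07 in R1, 10.05 ± 0.28 in R2 and 10.26 ± 0.47 in R3 (SD, n = 3), and was 5.97-fold and 5.16-fold lower (limma adjusted p = 0.000113 and 0.000125). Pkp1, the plakophilin of upper epidermal layers, was 8.49-fold lower in R2 and 8.88-fold lower in R3. Perp, a membrane protein needed for desmosomes in stratified epithelium, was 5.89-fold and 6.45-fold lower. Pkp3, a plakophilin of most epithelia, was 3.49-fold and 4.47-fold lower, and Ppl (periplakin), which links desmosomes to the cornified envelope, 4.01-fold and 2.71-fold lower. In R2 and R3 Pkp3 averaged 5.25 and 4.89 and Ppl 4.82 and 5.39, within or under the range of the guide. Their folds thus rest on dim signals, and the Ppl call in R3 was near the threshold (limma adjusted p = 0.0468).

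Evpl (envoplakin), the partner of periplakin, fell in R2 (log2 change -0.77, limma adjusted p = 0.0323) and missed the threshold in R3 (-0.62, adjusted p = 0.0586). Jup, encoding plakoglobin, which desmosomes share with adherens junctions, showed the reverse: -0.35 in R2 (adjusted p = 0.47) and a fall of 1.03 on the log2 scale in R3 (adjusted p = 0.0259). Neither gene's R3 against R2 difference passed. Pkp2, Pkp4 and Cdsn (corneodesmosin) did not pass in either comparison, with log2 differences from -0.24 to 0.19. Pkp4, known from many cell types besides epithelium, averaged 11.14, 11.29 and 11.06 in the 3 gates. Leaving out each array gave 3 to 6 lower plaque genes in R2 against R1 (3 without R2 replicate 2). In R3 against R1 it gave 4 to 6 (4 without R1 replicate 2 or R3 replicate 4).

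**Figure D3:**
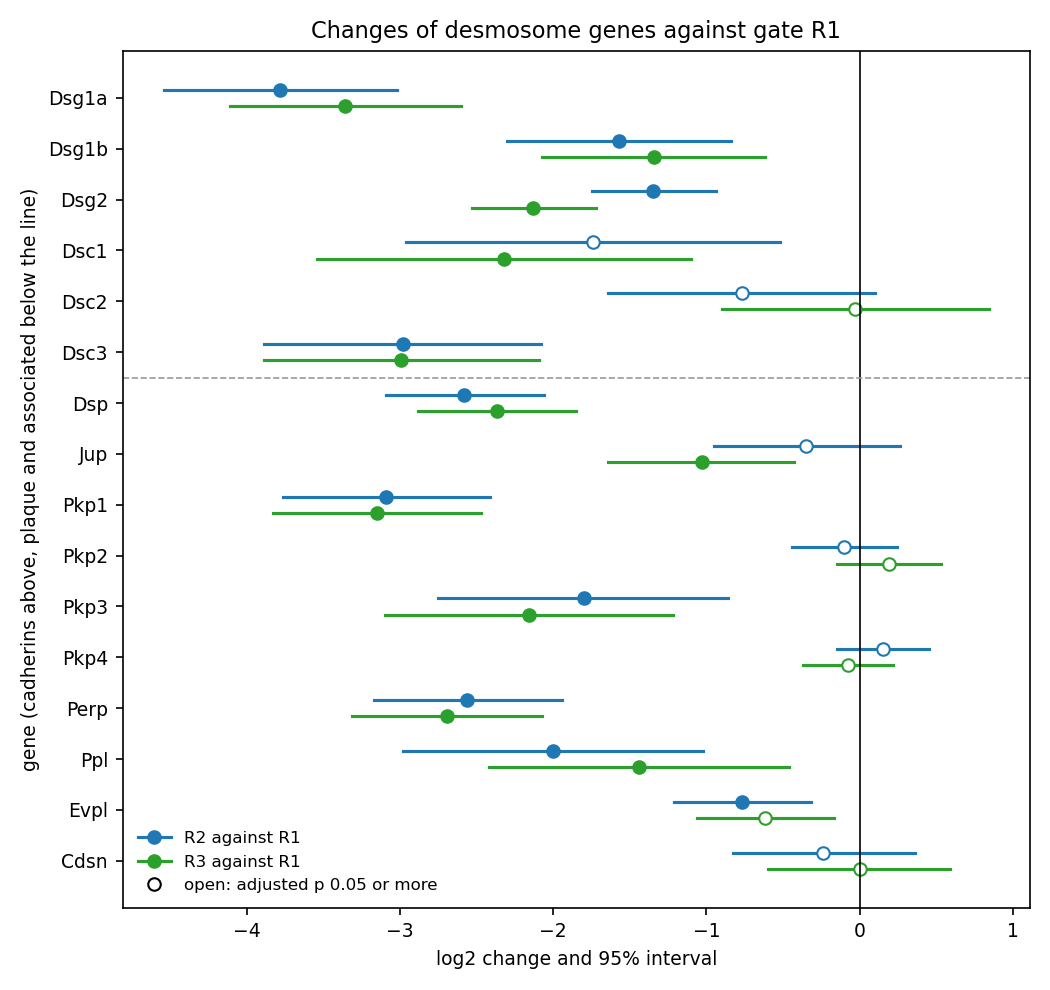
Log2 change against R1 with its 95% interval (horizontal axis) for the 6 measured desmosomal cadherins and the 10 plaque and associated genes (vertical axis), in R2 (blue) and R3 (green); filled points have a limma adjusted p under 0.05. Dsg1a, Dsc3, Pkp1, Perp and Dsp lie farthest to the left in R2, and the intervals of Dsc2, Pkp2, Pkp4 and Cdsn include 0 in both comparisons.

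Most keratinocyte markers moved with the cadherins. All 6 basal keratinocyte genes fell in both comparisons (median log2 change -2.88 in R2 and -2.79 in R3), among them the basal keratins Krt14 (9.44-fold and 9.65-fold), Krt5 (10.4-fold and 8.09-fold) and Krt15 (10.9-fold and 10.8-fold) and the epithelial regulator Trp63 (5.76-fold and 5.95-fold). The log2 of their summed level was 13.17 to 14.04 in R1, 10.48 to 10.51 in R2 and 10.30 to 10.98 in R3, and all 6 stayed above the guide in every array of every gate. The median change of the cadherins was smaller than that of this list, and the change of Dsc3 (-2.98 and -2.99) was close to it. Of 14 suprabasal and cornified genes 9 fell in R2 and 9 in R3 (medians -1.74 and -1.51); Krt1, a suprabasal keratin, was 19.1-fold lower in R2 and 9.85-fold in R3, Dmkn (dermokine) 11.3-fold and 8.98-fold, and Krt10 4.96-fold and 4.73-fold. Sprr1b, a cornified envelope gene, averaged 7.90 in R1, 3.07 in R2 and 4.28 in R3, the last 2 under the guide, so its folds of 28.3 and 12.3 rest on dim signals. Krt2, Lor, Ivl, Flg and Tgm1 were not called in either comparison, with log2 differences from -0.52 to 0.30. In R1, R2 and R3 Krt2 averaged 2.25, 2.55 and 2.14 and Flg 2.26, 2.01 and 2.12, under the guide in every array. The lack of a call for Krt2 and Flg therefore says little. Tgm1 averaged 5.53, 5.02 and 5.23, near the guide. Lor averaged 6.37, 6.42 and 6.24 and Ivl 6.79, 6.50 and 6.68 in R1, R2 and R3, above the guide. The summed level of the 14 genes was 13.06 to 13.35 in R1, 10.62 to 10.87 in R2 and 10.32 to 11.45 in R3 (log2).

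Hair follicle epithelial genes, fixed as a separate list because papillae lie against the hair matrix, fell in 10 of 14 cases in R2 and 11 of 14 in R3 (medians -2.52 and -2.77). The outer root sheath keratin Krt17 was 11.4-fold lower in R2 and 6.59-fold in R3, and the inner root sheath keratin Krt27 14.4-fold and 27.3-fold. The inner root sheath keratin Krt73 (8.62-fold and 8.22-fold) and the hair cortex keratin Krt35 (8.86-fold and 9.90-fold) averaged 5.29 and 4.06 in R2, near and under the guide. Their summed level was 12.32 to 13.30 in R1, 9.79 to 10.20 in R2 and 9.74 to 10.19 in R3 (log2).

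Many markers of non-epithelial cells of the dermal pool moved with the cadherins as well. Of 9 leukocyte genes 7 fell in each comparison (median log2 change -1.64 in R2 and -2.01 in R3). Those not called were Cd68 (log2 differences -0.03 and 0.07) and Csf1r (-0.71 and -0.02). The summed level of the 9 was 12.12 to 12.60 in R1, 10.28 to 10.71 in R2 and 10.38 to 11.07 in R3 (log2). Of 6 melanocyte genes 4 fell in R2 and 5 in R3 (medians -1.34 and -1.82), with a highest summed level of 11.34 in R1, 10.09 in R2 and 10.01 in R3 and no overlap of R1 with the other gates. The cadherin medians were -1.66 in R2 and -2.22 in R3, and they include Dsg1b and Dsc2, which lay under the guide in all 9 arrays. Of 9 dermal fibroblast genes 5 fell in each comparison (medians -0.61 and -1.42). The part of epithelial or other cells in the cadherin changes was not tested.

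Other junction genes did not all move the same way. Cdh1, the E-cadherin of epithelial adherens junctions, averaged 9.56 in R1, 6.79 in R2 and 6.75 in R3, and was 6.83-fold and 6.99-fold lower. Of the 8 classical cadherin and catenin genes, 2 fell (Cdh1 and Cdh3) and 2 rose (Cdh5 and Cdh2) in R2 against R1; in R3 against R1, 3 fell (Cdh1, Cdh3 and Cdh5) and 1 rose (Cdh2). Cdh5, the cadherin of endothelium, was thus 2.60-fold higher in R2 and 2.96-fold lower in R3 than in R1 (limma adjusted p = 0.0215 and 0.00836), and 7.70-fold lower in R3 than in R2. Cdh1 stayed called without any single array. In R2 against R1 the lower count was 1 without R1 replicate 2, R1 replicate 4, any R2 array or R3 replicate 4; the higher count was 0 without R1 replicate 2 or R2 replicate 2, and 1 without R1 replicate 4, R2 replicate 5 or any R3 array. The catenins Ctnna1, Ctnnb1 and Ctnnd1, known from most adherens junctions, had log2 differences of 0.15, 0.16 and 0.13 in R2, none past the test.

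Of 6 hemidesmosome genes 1 fell and 1 rose in R2 against R1, and 1 fell and 2 rose in R3 against R1. Col17a1, the transmembrane collagen of basal keratinocytes, fell 6.20-fold in R2 and 6.95-fold in R3, and Dst, a cytolinker also known from nerve and muscle, rose 1.82-fold and 2.91-fold. Itga6, the integrin alpha subunit of hemidesmosomes, which is also known from other cell types, rose 2.29-fold in R3 (limma adjusted p = 0.000357) and differed by 0.19 on the log2 scale in R2 (adjusted p = 0.45). Without R3 replicate 2 the count of lower hemidesmosome genes in R2 was 2 in place of 1. Of 6 measured tight junction genes 3 fell and 1 rose in each comparison; the riser, the scaffold gene Tjp1 (1.54-fold and 1.45-fold), was not called without R1 replicate 2 or 4, in R2 without R2 replicate 2 or 5, and in R3 without R3 replicate 4 or 5. Cldn1, a claudin of the epidermis, was 4.34-fold and 4.36-fold lower and Ocln (occludin) 4.17-fold and 12.7-fold lower. Ocln averaged 5.80 in R2, with its lowest array (5.10) under the guide. In R3 it averaged 4.20 and its highest array was 4.90, under the guide, so the 12.7-fold change rests on dim signals.

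Regulators and proteases tied to desmosomes were also examined. Of 10 measured epidermal transcription factors, 6 fell and 1 rose in R2 against R1 (median log2 change -1.47), and 5 fell and 2 rose in R3 against R1 (median -0.99). Ovol1, a regulator of keratinocyte differentiation, was 4.05-fold lower in R2 and 4.12-fold in R3, and Grhl1, a grainyhead factor of epithelial junction genes, 2.74-fold and 3.67-fold. Its relative Grhl2 was 3.53-fold lower in R2, was not called in R3 (log2 difference -0.51, limma adjusted p = 0.257) and exceeded R2 by 2.47-fold there (adjusted p = 0.0289). Tfap2a, an AP-2 factor of epidermis, did likewise: 2.97-fold lower in R2, a log2 difference of -0.09 in R3 (adjusted p = 0.855), and a level 2.79-fold above R2 there (adjusted p = 0.00963). These were the 2 factors called between R3 and R2, and the count was 1 without any R2 array, R3 replicate 2 or R3 replicate 4. Tfap2c rose 3.54-fold in R2 and 2.70-fold in R3, and Klf4 rose by 0.44 on the log2 scale in R3 (adjusted p = 0.0314); the higher count in R3 was 1 without R1 replicate 2 or 4 or R3 replicate 4 or 5. Of 8 measured proteases and inhibitors that act on desmosomal cadherins or on their activating cascade, 4 fell and 0 rose in each comparison against R1 in limma (5 and 4 lower and 0 higher at an unadjusted p under 0.05). St14 (matriptase) was 3.41-fold and 3.93-fold lower and Klk7, a kallikrein that cleaves corneodesmosomes, 3.29-fold and 2.64-fold lower.

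Between the papilla gates, 1 of 6 members was called: Dsg2, lower by 1.72-fold in R3 (log2 change -0.78 with a standard error of 0.18, limma adjusted p = 0.0382), where 3.06% of all genes fell and 1.97% rose. The median over the 6 was 0.11 against -0.01 for all genes, and the other 5 did not pass, with adjusted p from 0.357 to 0.999 in limma. At its main probe set Dsg2 was lower in R3 than in R2 in each mouse. Probe set 1449741_at was instead higher in R3 in mouse 5 (5.53 against 5.44), and 1460380_at in mouse 2 (4.79 against 4.74). The Dsg2 probe set 1439476_at stood at 5.80, 6.03 and 4.69 in R2 and at 4.24, 3.70 and 4.02 in R3, without overlap, as at the main probe set. The change was -1.52 (adjusted p = 0.0255 when each probe set was tested with limma). It rests on dim signals, since 2 of 3 R2 arrays and 0 of 3 R3 arrays exceeded the guide at this probe set. Probe set 1439476_at was the 1 of the 14 called in that test, where 2.09% of all probe sets fell and 1.73% rose. The other 4 Dsg2 probe sets had log2 differences from -0.26 to -0.44, overlapped and did not pass. In the single probe set test the main probe set lay at the threshold (adjusted p = 0.05) and was not called.

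The Dsg2 call between R3 and R2 was also lost with the mean of its 6 probe sets (log2 change -0.62, adjusted p = 0.0864) and on leaving out R1 replicate 4 (adjusted p = 0.0609) or any R2 or R3 array (adjusted p from 0.0543 to 0.13). All 10 endothelial genes were lower in R3 than in R2 and 9 passed (median -2.41). Their summed level was 10.25 to 10.47 in R1, 11.92 to 12.30 in R2 and 10.06 to 10.44 in R3 (log2). Of 9 dermal fibroblast genes 3 fell in R3 (median -0.42), with summed levels of 16.16 to 16.21 in R1, 15.52 to 15.71 in R2 and 15.45 to 15.51 in R3. All 6 Schwann cell genes rose in R3 against R2 (median 3.44), the myelin gene Mbp 65.4-fold; their summed level was 10.05 to 10.61 in R1, 8.23 to 8.87 in R2 and 12.55 to 12.79 in R3. The part of these cells in the Dsg2 difference was not tested. Basal keratinocyte genes had a median difference of 0.04 between R3 and R2, and 0 of 6 passed in limma, with 0 at an unadjusted p under 0.05.

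**Figure D4:**
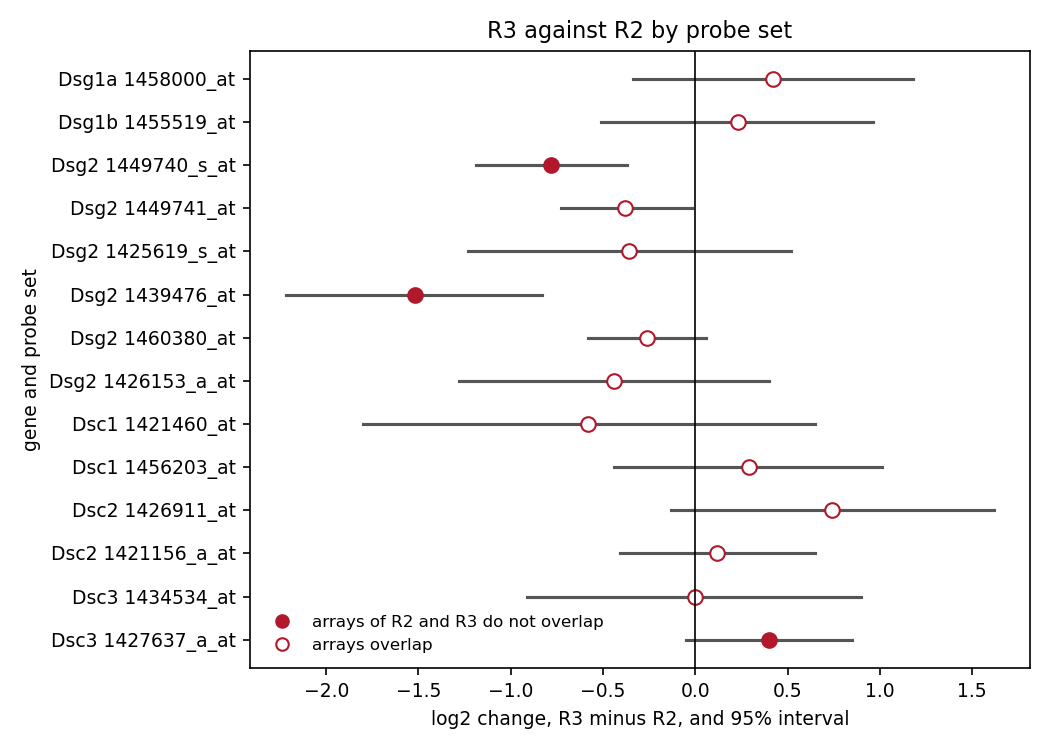
Log2 change of R3 minus R2 with its 95% interval (horizontal axis) for each of the 14 probe sets (vertical axis); filled points are probe sets whose R2 and R3 arrays do not overlap. The 6 Dsg2 probe sets lie to the left of 0, from -0.26 to -1.52, and the filled Dsc3 probe set lies at 0.40.

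For the remaining members the R3 minus R2 difference was 0.42 for Dsg1a (95% interval -0.33 to 1.18), 0.23 for Dsg1b (-0.50 to 0.95), -0.58 for Dsc1 (-1.80 to 0.64) and 0.74 for Dsc2 (-0.13 to 1.61). For Dsc3 the interval ran from -0.90 to 0.90 around equal means. Its other probe set had R3 arrays (6.85 to 6.90) above R2 arrays (6.34 to 6.57) by 0.40 on average, with an adjusted p of 0.368 in limma; arrays did not overlap in this comparison for 21.0% of all probe sets and 22.7% of genes at their main probe sets.

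Across the 9 arrays the members did not all share 1 pattern, as a description of arrays that share 3 gates and 3 mice. Dsg1a and Dsc3 were the most alike (Pearson r = 0.98), Dsg2 and Dsc1 had r = 0.90 and Dsc2 had r between 0.22 and 0.64 with the other 5. The genes most like Dsc3 were Serpinb5, encoding the epithelial serpin maspin (r = 0.998), Dsp (r = 0.984) and Plet1 (r = 0.981). Dsp was also the gene most like Dsg1a (r = 0.990), before Prr9 (0.988) and Sirpa (0.987). The genes most like Dsg2 were Mfhas1 (r = 0.994), the collagen cross-linking enzyme gene Lox (0.989) and Lhfpl2 (0.988). Each was lower in R3 than in R2 (log2 differences -0.61, -0.68 and -0.39). That direction comes with their choice by likeness to Dsg2 over the same arrays and is no separate result.

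Dsc1 at its main probe set was most like Phpt1 (r = 0.975), the actin cross-linker gene Actn4 (0.970) and Adh6b (0.967). Dsg1b was most like Snx22 (r = 0.985), the neonatal Fc receptor gene Fcgrt (0.983) and Plekha7 (0.982). These genes were the closest among all named genes over only 9 arrays.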

How the data were processed

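The authors deposited 1 log2 expression value per probe set and array, and the submitters' processing notes name RMA (a summary of probes after background correction and quantile normalization); the sources used here give neither its version nor its software. Per the labels' protocols, total RNA was amplified with the WT-Ovation Pico system and labelled with biotin on 1-colour arrays. Amplification and quantile normalization can compress differences. Of 45101 probe sets, 34945 had 1 gene symbol and were not controls, 932 had several symbols and 9211 none. Gates were compared with limma 3.58.1 in R 4.3.3 over all 9 arrays without a block for the mouse (total degrees of freedom 9.49), with Benjamini-Hochberg adjustment over 18193 genes. Calls had an adjusted p under 0.05. Arrays with the same number were made from 1 mouse and so are paired; their deviations from the gate means correlated at 0.007 to 0.177, against -0.157 to 0.041 between mice. The mice are separate animals. Members, lists and tests were chosen with earlier results of these data known. All members and all plaque genes were to be named. From each other list, up to 4 genes with the lowest p in R2 against R1 were to be named. The 3 genes with the highest r to each called member were also to be named. Further genes were chosen after their values were seen (Grhl1, Tfap2a, Klf4, Itga6, the catenins, Krt2, Lor, Ivl, Flg, Tgm1, Cd68, Csf1r and Sox2). The lists also held Schwann cell markers, of which 3 of 6 fell in R2 against R1 and 4 of 6 rose in R3 against R1. Of 10 endothelial genes 9 rose in R2 against R1, and of 16 dermal papilla genes 10 rose in R2 and 16 in R3. Python 3.11.15 and matplotlib 3.10.9 made the plots. No sequences of the members are printed.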

Additional observations from a re-analysis of the deposited data

How the results depend on the processing

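The counts of called members were 4, 5 and 1 in R2 against R1, R3 against R1 and R3 against R2, and stayed so with the mouse as a fixed replicate block, with the mouse as a random block, with the 6 arrays of a comparison alone, after centring or quantile normalization again, and with a trend and robust variance. Among genes above the median gene only Dsc3 was tested, and the counts were 1, 1 and 0. Leaving out each array gave 4 to 5, 4 to 5 and 0 to 1. The single call between R3 and R2 gave a count of 0 with the mean of all probe sets, with every probe set tested singly and with a 2-fold minimum. Differences near 0 changed sign: Dsc2 in R3 against R1 was 0.07 after centring, 0.03 with the mean of probe sets, and -0.24 to 0.30 over leaving out each array; Dsc3 in R3 against R2 was 0.08 after centring, 0.11 after quantile normalization, 0.20 with the mean of probe sets, and -0.43 to 0.32 over leaving out each array. Paired by mouse, Dsc3 minus Dsg2 changed by -0.89, -2.24 and -1.79 in R2 against R1 in mice 2, 4 and 5 (mean -1.64, exact sign-flip p = 0.25, the smallest that 3 mice allow). The number of arrays and signals under the guide limit the precision.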
